A study of Mus musculus with 6 samples.

Results

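A set of 34 genes was followed that charge transfer RNAs with amino acids, make serine and one-carbon units, make asparagine, proline or cysteine, or sense amino acid shortage. They were chosen by name from the 27458 genes of the deposited table, and all 34 were found there. The libraries came from primary bone marrow macrophages treated with macrophage colony-stimulating factor (M-CSF), a cytokine that keeps macrophages alive and growing. There were 3 libraries from RKIP+/+ mice (WT) and 3 from RKIP-/- mice (KO), and the series asks how RKIP, a protein known to bind Raf kinases and encoded by Pebp1, acts on macrophage differentiation. Every library had the M-CSF treatment. The sources used here give no strain, no age and no account of how the allele was made. Separate animals per library are not stated in the labels, so the p-values rest on a spread between libraries that may be technical.

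Aminoacyl-tRNA synthetases join each amino acid to its transfer RNA before translation. The serine pathway turns a glycolytic intermediate into serine, and serine passes its side-chain carbon to folate, which feeds purine, thymidylate and formate synthesis. When uncharged transfer RNA builds up, the protein Gcn1 helps the kinase Gcn2 (gene Eif2ak4) to phosphorylate the translation factor eIF2. That raises translation of the transcription factor ATF4, for which many of the synthetase, serine and asparagine genes are known targets.

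Pebp1 stood at 37.2 ± 3.44 FPKM (SD, n = 3) in WT and had 0 counts in each KO library. Total estimated counts ran from 53188659 to 55255365 in WT and from 63607276 to 70059042 in KO. The 14 macrophage markers were all above 1 FPKM, with 3 higher and 7 lower in KO by edgeR, and 5 higher and 2 lower with the length and GC offsets described below. Csf1r, the M-CSF receptor, was at 296 to 300 FPKM in WT and 366 to 397 in KO, and the complement gene C1qa at 697 to 744 in WT and 579 to 593 in KO. Neutrophil markers stood apart between the groups. Their summed level was 107 to 196 FPKM in WT and 24.6 to 27.2 in KO, 10 of the 12 that could be tested were lower in KO, and of the 18 genes the defining marker Ly6g was at 0 in every KO library. The summed level of 12 cell cycle markers was 158 to 164 FPKM in WT and 128 to 142 in KO, with 10 lower. Collagen gene Col1a1, a marker of stromal and osteoblast cells, was abundant in both groups, at 451 to 512 FPKM in WT and 430 to 499 in KO. Of the 9 markers of these cells that could be tested, 1 was higher and 2 were lower in KO by edgeR. With the offsets 1 was higher and 4 were lower. By edgeR, Cxcl12 was higher (log2 fold change 0.57), and Alpl (-0.27) and Pdgfrb (-0.18) were lower. Of 8 erythroid and megakaryocyte markers 6, and of 9 lymphoid markers 7, were under 0.5 FPKM in every library. Of the rest, the platelet factor gene Pf4 was higher in KO (107 to 117 FPKM in WT, 137 to 144 in KO), and Ebf1 was higher (3.31 to 3.67 in WT, 4.75 to 4.88 in KO). Epor was higher in each KO library (0.634 to 1.21 in WT, 1.44 to 1.69 in KO). It was not called by edgeR (adjusted p = 0.0631), but was with the offsets (edgeR adjusted p = 0.0374). Cd4 was not called in either. The part that these other cells or cell division had in the results below was not tested. In bulk RNA, fewer cells of a type and less RNA per cell cannot be told apart.

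Most of the 34 genes were lower in KO, and 1, Gcn1, was higher. Of the 33 that passed the filter of a mean of 1 FPKM (fragments scaled by transcript length and library total), 22 were lower and 1 higher by the quasi-likelihood test of edgeR at an adjusted p under 0.05. Over all 11636 genes tested, 19.4% were lower and 20.3% higher, or 39.7% in either direction. The median log2 fold change, KO over WT, was -0.21 for the 33 genes and -0.01 for all tested genes, and 30 of the 33 had a negative value. In FPKM, 23 of the 33 had every KO library below every WT library, against 19.1% of all tested genes, and 3 had every KO library above, against 32.4%. The differences were small in size: the 34 genes summed to 459 to 472 FPKM in WT and 412 to 430 in KO, which is 9.04% lower, and the sum is mostly that of the synthetases. Cbs, which starts the transsulfuration pathway, was near background at 0.0209 ± 0.0125 FPKM in WT and 0.0285 ± 0.0218 in KO (SD, n = 3 each) and was not tested.

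**Figure D1:**
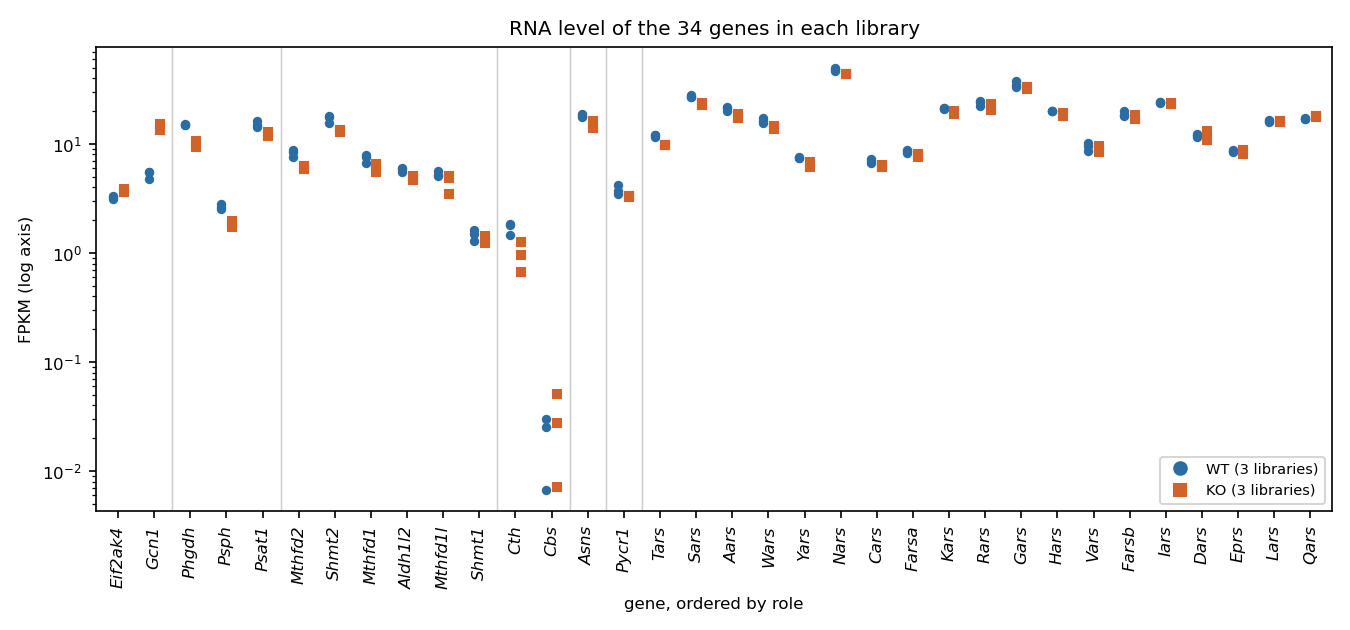
RNA level of each of the 34 genes in FPKM on a log axis, with 1 point per library (3 WT, 3 KO) and the genes grouped by role between grey lines. Gcn1 is the gene with clearly higher KO points, from 13.5 to 15.0 against 4.81 to 5.56 FPKM, while the serine, folate and most synthetase genes have their KO points lower.

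**Figure D2:**
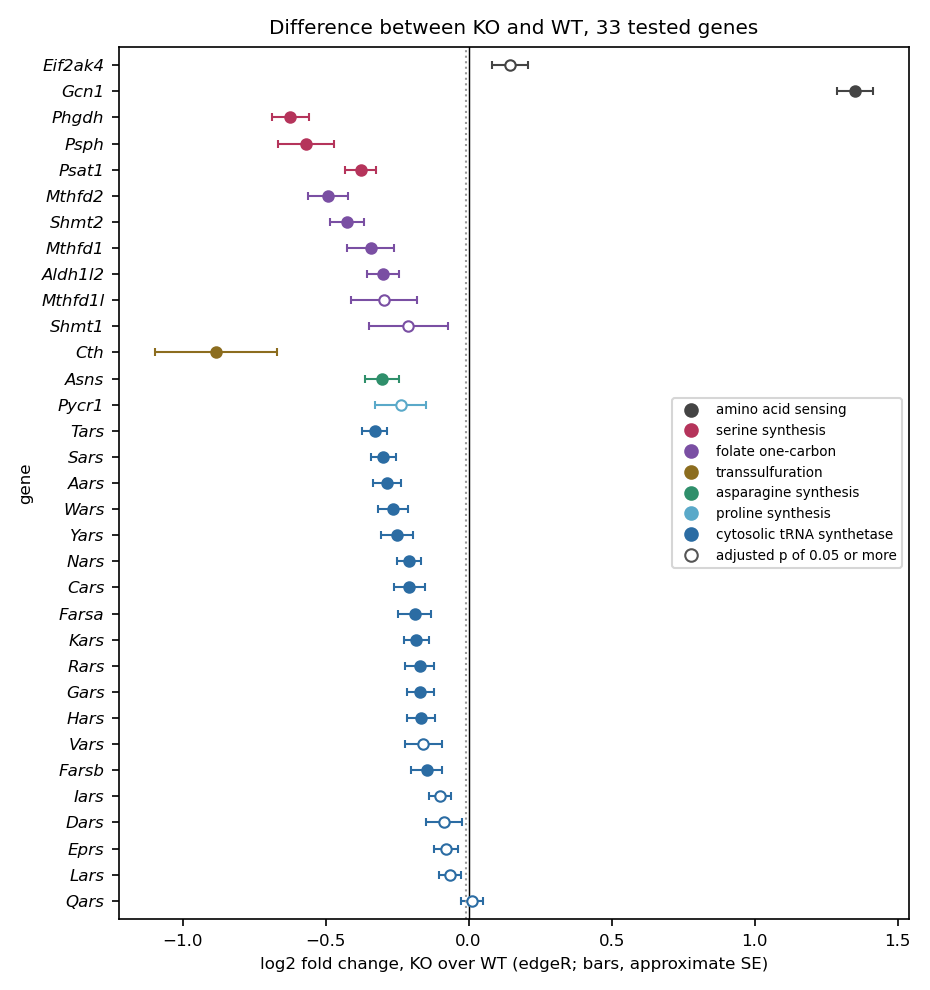
Log2 fold change of the 33 tested genes, KO over WT, from edgeR, with bars for the approximate standard error and open circles where the adjusted p was 0.05 or more. The dotted line is the median of all tested genes, -0.01, and all but Gcn1, Eif2ak4 and Qars lie to the left of 0.

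The counts depended in part on the scale. When edgeR was run with offsets that take up a trend of each library on GC content and transcript length, the count stayed at 22 lower and 1 higher, with 18 of the lower calls shared, against 14.8% lower and 16.6% higher (31.5% in either direction) among all genes under the same offsets, and the median was -0.17. Upper quartile scaling gave 28 lower, where 24.8% of all genes were lower, and limma on log2(FPKM + 1), which follows the FPKM scale, gave 16 lower and 2 higher, where it called 14.1% of all genes lower and 23.8% higher (37.9% in either direction). Over all genes, calls were 51.2% higher by edgeR, 39.9% with upper quartile scaling and 62.8% with limma.

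**Figure D3:**
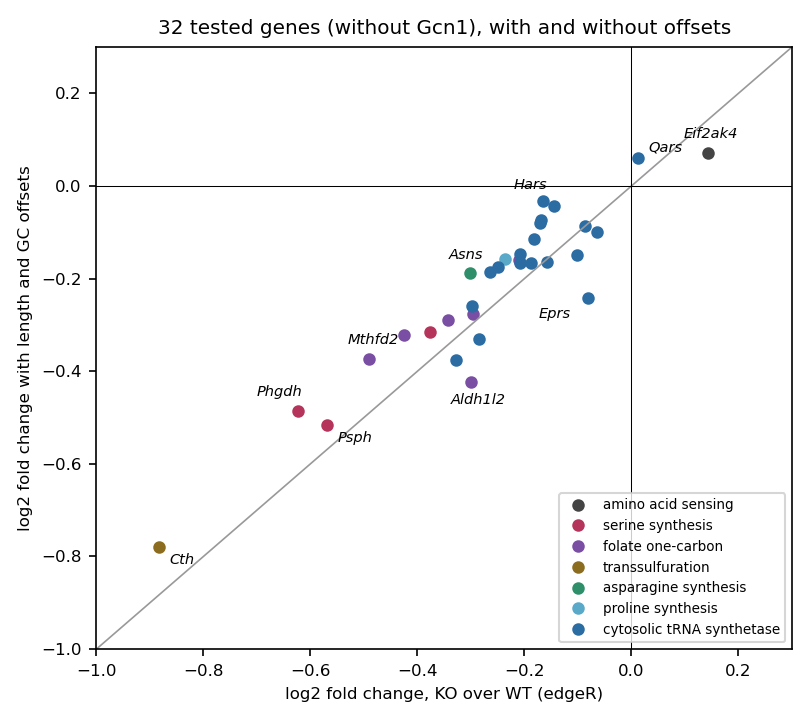
Log2 fold change, KO over WT, of the 32 tested genes other than Gcn1 by edgeR (x axis) and by edgeR with offsets for transcript length and GC content (y axis), coloured by role, with the line of equal values. Genes left of 0 and above the line are closer to 0 with the offsets, such as Hars at -0.17 and -0.03, and Eprs lies below it at -0.08 and -0.24.

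Promoter sequences are shown because ATF4 is known to bind a composite element, searched here as TGATGNAAN on both strands of RefSeq windows of 300 bases (GRCm38.p6, 250 bases before to 50 after a start site). Of the 34 genes, 25 had a window, with 27 windows in all, and 7 of these 25 genes (28%) held the element. Of all 32851 windows 3.95% held it, which is a share of windows and not of genes. The 7 were Aars, Asns, Gars, Iars, Pycr1, Tars and Yars. Stretches of 5 of them with the element upstream of the window's start site are printed on the gene's strand, with the element in capitals:
Asns, chr6:7693194-7693262 on the minus strand: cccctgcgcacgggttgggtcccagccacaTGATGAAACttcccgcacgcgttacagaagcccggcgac
Pycr1, chr11:120643813-120643881 on the minus strand: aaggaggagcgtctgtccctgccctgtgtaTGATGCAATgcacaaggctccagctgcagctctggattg
Aars, chr8:111033699-111033767 on the plus strand: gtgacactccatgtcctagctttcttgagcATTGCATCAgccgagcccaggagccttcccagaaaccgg
Gars, chr6:55037940-55038008 on the plus strand: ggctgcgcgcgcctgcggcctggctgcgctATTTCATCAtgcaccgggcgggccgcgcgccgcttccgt
Tars, chr15:11399636-11399704 on the minus strand: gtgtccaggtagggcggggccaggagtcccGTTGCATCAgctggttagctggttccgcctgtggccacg
In Asns and Pycr1 the element reads on the gene's own strand, and in Aars, Gars and Tars it reads on the opposite strand. Aars held a further match downstream of its window's start site. These start sites need not be the deposited gene starts. By the deposited coordinates Aars begins at 111033144 and Asns at 7693254, so the printed elements of both lie inside the gene. Of the 7 genes, 5 were lower in KO (Aars, Asns, Gars, Tars, Yars), among 15 lower genes with a window. The E-box CACGTG, a palindrome, was in windows of 5 of the 25 genes (20%): Aars, Cbs, Farsb, Iars and Tars. Of all windows 7.15% held it, again a share of windows and not of genes. The window of Gcn1 held neither. A match describes the letters and shows no binding.

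Gcn1 RNA was raised. It was 4.81, 5.53 and 5.56 FPKM in the WT libraries and 13.5, 15.0 and 13.6 in the KO libraries. The groups were far apart, with the lowest KO value above the highest WT value. The log2 fold change was 1.35 ± 0.06 (approximate SE), a 2.55-fold rise (edgeR adjusted p = 8.69e-08), and with the length and GC offsets it was 1.21. By log2 fold change it ranked 21 among all tested genes, and it was called under each of the 18 other settings tried. Eif2ak4, the kinase that Gcn1 activates, stood at 3.14, 3.23 and 3.36 FPKM in WT and 3.64, 3.69 and 3.82 in KO. Its KO libraries were also all higher in FPKM, by a small amount, as was so for 32.4% of all tested genes. The log2 difference was 0.14 (edgeR adjusted p = 0.0902). Limma on log2(FPKM + 1) gave an adjusted p of 0.0484, while with the length and GC offsets the difference was 0.07 (edgeR adjusted p = 0.376).

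Gcn1 lies at chr5:115565254-115622654 on the plus strand, as the deposited table gives it. Rplp0, which encodes a protein of the large ribosomal subunit, lies on the same strand and ends 1526 bp before Gcn1 starts, and Pebp1 is 1.66 Mb away. Rplp0 moved the other way, from 661 ± 27.8 FPKM in WT to 279 ± 10.5 in KO (SD, n = 3 each), 2.46-fold lower by edgeR (adjusted p = 1.28e-08). Gcn1 was thus 0.694% to 0.865% of the Rplp0 level in WT libraries and 4.67% to 5.36% in KO libraries, on the FPKM scale. The 7 Rplp0 pseudogenes in the table had sums of 78.1 ± 4.17 FPKM in WT and 528 ± 3.00 in KO, led by Gm8730 (55.3 ± 2.94 to 436 ± 3.20). Rplp0 and these copies summed to 739 ± 31.4 FPKM in WT and 807 ± 11.0 in KO, so the Rplp0 value is uncertain as to which copy the fragments came from.

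A short processed pseudogene of Gcn1, Gm13123 (492 bp, 99.4% identity), was at 2.61 ± 0.214 FPKM in WT and 5.86 ± 1.20 in KO (SD, n = 3 each), so it rose along with Gcn1 (log2 fold change 1.10, edgeR adjusted p = 0.00143). Fragments could be split between the copies, which leaves the Gcn1 level uncertain to that extent. The pseudogene has 492 bp, against 8555 bases for the longest Gcn1 transcript, so equal FPKM stands for fewer fragments in the pseudogene. On the other side of Rplp0, Pxn, which encodes the adhesion protein paxillin, was lower by 0.18 on the log2 scale. Beyond Gcn1, the trafficking GTPase gene Rab35 was higher by 0.14 (edgeR adjusted p = 0.0243), a call that ended with either KO replicate 1 or 2 or any 1 WT library left out. The next tested gene, Gm13841, was lower at -0.29 (edgeR adjusted p = 2.00e-04) but higher at 0.17 with the length and GC offsets (edgeR adjusted p = 0.00209). Of 183 tested genes within 10 Mb of Pebp1, 17.5% were higher and 22.4% lower. Of these, 3 passed the threshold with a change of at least 2-fold: Gcn1 up, and Rplp0 and Atp5k down. Whether the nearness of Gcn1 to Pebp1 had a part in its rise was not tested. Loss of RKIP and any other DNA difference near Pebp1 cannot be told apart in this comparison.

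**Figure D4:**
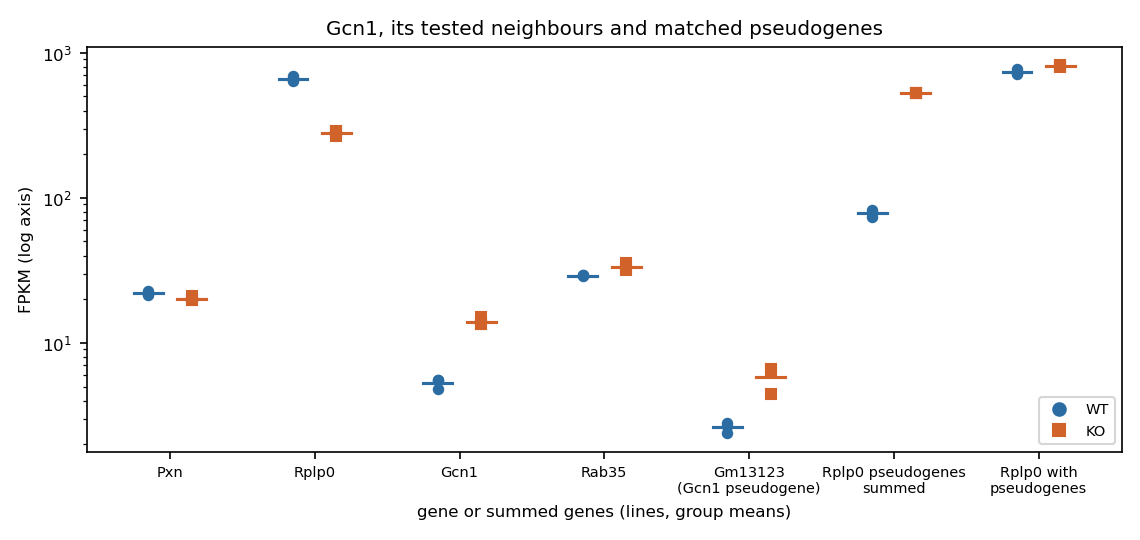
FPKM on a log axis of Gcn1, its tested neighbours Pxn, Rplp0 and Rab35, the Gcn1 pseudogene Gm13123, the 7 Rplp0 pseudogenes summed, and Rplp0 with those pseudogenes, with 1 point per library and a line at each group mean. The tested neighbour Gm13841 is not drawn. Gcn1 and the pseudogene sum are higher in KO, Rplp0 is lower, and Rplp0 with its pseudogenes stays between 717 and 819 FPKM.

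Genes with the most similar profile to Gcn1 over the 6 libraries, among 11615 compared by the correlation of log2 FPKM, were Ap2a2 (r = 0.999), Islr (r = 0.998) and Gatad2b (r = 0.998). Their own log2 differences were 0.32, 0.45 and 0.37. With 2 groups far apart, such values follow mainly from the group difference and are given as a description.

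The 3 enzymes that make serine from 3-phosphoglycerate all fell. Phgdh, the first and committed enzyme, was at 14.8, 15.1 and 15.0 FPKM in WT and 10.2, 9.43 and 10.6 in KO. Every KO library was well below every WT library, and the log2 fold change was -0.62 ± 0.07, or 1.54-fold lower (edgeR adjusted p = 3.03e-05). Psat1, the aminotransferase of the next step, was at 15.0, 16.2 and 14.3 FPKM in WT and 11.7, 11.8 and 12.8 in KO, and was 23.0% lower (log2 fold change -0.38 ± 0.05, edgeR adjusted p = 2.61e-04). Psph, the phosphatase that releases serine, was the least abundant. It fell from 2.54, 2.61 and 2.80 FPKM to 1.86, 1.95 and 1.74, a log2 fold change of -0.57 ± 0.10 (edgeR adjusted p = 9.09e-04). Summed, the 3 genes stood at 32.1 to 33.9 FPKM in WT and 23.2 to 25.1 in KO, 26.6% lower, and each was called lower in every setting that tested it.

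Phgdh has many processed copies in the mouse genome. Of 20 matched pseudogenes, 10 were in the table, and their levels summed to 9.86 ± 1.23 FPKM in WT and 8.79 ± 1.76 in KO (SD, n = 3 each). Phgdh together with them was at 25.9, 24.9 and 23.7 FPKM in WT and 17.4, 20.1 and 19.1 in KO. The groups stayed apart in that sum, which was 24.0% lower in KO against 32.6% for Phgdh alone. Psph overlaps Cct6a, a chaperonin gene on the opposite strand, by 452 bp. The sources used here do not say if fragments were counted by strand, so this overlap leaves the Psph level uncertain as well. Other genes of the set with such an overlap include Hars (198 bp with Hars2) and Shmt1 (184 bp with Smcr8). Smcr8 was at 10.5 to 11.5 FPKM in WT and 12.3 to 13.0 in KO.

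Folate enzymes were lower too, 4 of 6 by the test. Mthfd2, the mitochondrial methylenetetrahydrofolate dehydrogenase, was at 8.37, 8.78 and 7.58 FPKM in WT and 5.92, 6.28 and 6.04 in KO (log2 fold change -0.49 ± 0.07, edgeR adjusted p = 2.50e-04). Shmt2, which moves the serine carbon to folate in mitochondria, was at 15.6, 18.1 and 17.5 FPKM in WT and 12.8, 13.3 and 13.4 in KO (-0.43 ± 0.06, edgeR adjusted p = 1.89e-04). Groups did not overlap for either gene. Mthfd1, the cytosolic trifunctional enzyme, fell by 0.34 on the log2 scale (edgeR adjusted p = 0.00607), and its lowest WT value, 6.65 FPKM, was only just above the highest KO value, 6.58. Aldh1l2, the mitochondrial 10-formyltetrahydrofolate dehydrogenase, fell from 5.78 ± 0.216 to 4.88 ± 0.169 FPKM (SD, n = 3 each), a log2 fold change of -0.30 (edgeR adjusted p = 0.00120).

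For the other 2 folate genes the test was not passed. Mthfd1l, which releases formate in mitochondria, was at 5.03, 5.61 and 5.14 FPKM in WT and 3.45, 5.03 and 4.87 in KO. Its spread came mostly from KO replicate 1, the lowest library, and the log2 difference was -0.30 (edgeR adjusted p = 0.0605). Without KO replicate 1 the value was -0.15 (adjusted p = 0.164 by edgeR), and without KO replicate 2 it was -0.39 (0.0291). Shmt1, the cytosolic counterpart of Shmt2, was far less abundant, at 1.29 to 1.64 FPKM in WT and 1.24 to 1.44 in KO. The groups overlapped and the log2 difference was -0.21 with a 95% interval from -0.48 to 0.06 (edgeR adjusted p = 0.255). Summed, the 6 folate genes were 20.4% lower in KO.

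Cth, which cleaves cystathionine to cysteine, had the most negative log2 fold change of the 33 genes at a low level. It was at 1.84, 1.82 and 1.47 FPKM in WT and 0.954, 1.25 and 0.673 in KO. The KO libraries differed among themselves by nearly as much as the groups stood apart, yet did not overlap WT, and the log2 fold change was -0.88 ± 0.21 (edgeR adjusted p = 0.00630). On the log2(FPKM + 1) scale, which shrinks low genes, limma gave -0.48. Asns, the asparagine synthetase, was at 17.4, 18.6 and 17.9 FPKM in WT and 13.9, 15.3 and 16.2 in KO. All KO libraries were lower (log2 fold change -0.30 ± 0.06, edgeR adjusted p = 0.00167), and the length and GC offsets reduced the value to -0.19 (adjusted p = 0.0255). Pycr1, of proline synthesis, was at 3.45, 3.71 and 4.16 FPKM in WT and 3.35, 3.34 and 3.26 in KO. Its libraries did not overlap, but the log2 difference of -0.24 missed the threshold (edgeR adjusted p = 0.0545), and without WT replicate 1 it passed (0.0280).

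Cytosolic tRNA synthetases moved by less, and in the same direction. Of 19 genes, which encode 18 enzymes since Farsa and Farsb are subunits of 1 enzyme, 13 were lower, 0 higher and 6 did not pass the test in edgeR. The median log2 fold change was -0.17, and the summed level was 350 to 359 FPKM in WT and 319 to 331 in KO, 8.23% lower. Values ran from -0.33 for Tars to 0.01 for Qars.

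Tars, for threonine, was at 12.1, 12.0 and 11.5 FPKM in WT and 9.85, 9.69 and 9.85 in KO. Its libraries agreed closely within each group, and it was 1.26-fold lower (log2 fold change -0.33 ± 0.04, edgeR adjusted p = 1.31e-04). Sars, for serine, was at 26.7, 27.8 and 26.9 FPKM in WT and 23.4, 22.8 and 22.5 in KO. The 2 groups were well separated (-0.30 ± 0.04, edgeR adjusted p = 2.38e-04). Aars, for alanine, was at 19.8, 21.3 and 21.7 FPKM in WT and 17.1, 18.9 and 17.6 in KO (-0.29 ± 0.05, edgeR adjusted p = 9.68e-04). Here the gap between the groups was narrower, less than 1 FPKM. Wars, for tryptophan, was at 17.3, 16.3 and 15.5 FPKM in WT and 13.7, 14.7 and 13.9 in KO, and Yars, for tyrosine, was at 7.41 to 7.57 in WT and 6.18 to 6.81 in KO. Both were lower without overlap, by -0.26 and -0.25 on the log2 scale (edgeR adjusted p = 0.00197 and 0.00485). Nars, for asparagine, was the most abundant of the 34 genes, at 46.7, 49.4 and 48.8 FPKM in WT and 43.3, 43.5 and 43.4 in KO. Its KO libraries were nearly equal and all lower (-0.21 ± 0.04, edgeR adjusted p = 0.00204).

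The remaining 7 lower calls were the weakest, and each ended under at least 1 other setting. They were those of Cars (cysteine, -0.21), Farsa (phenylalanine, -0.19), Kars (lysine, -0.18), Rars (arginine), Gars (glycine) and Hars (histidine, each -0.17) and Farsb (-0.15). Cars and Kars were still called with any 1 library left out. Gars lost its call without WT replicate 1 (adjusted p = 0.0589 by edgeR) or KO replicate 1. Hars lost it without WT replicate 3, KO replicate 1 or KO replicate 3, up to an edgeR adjusted p of 0.0656. For Rars, leaving out any of WT replicates 1 and 2 and KO replicates 1 and 3 ended the call, with edgeR adjusted p from 0.0524 to 0.0818. Farsa lost it without WT replicate 1, WT replicate 2 or KO replicate 3 (up to 0.0732). Farsb was just under the threshold and lost its call without any 1 of 4 libraries, WT replicates 2 and 3 and KO replicates 1 and 3. With the length and GC offsets Gars, Hars, Rars and Farsb were not called. The ratio of Farsa to Farsb, the catalytic and the other subunit, was 0.457 ± 0.0249 in WT and 0.444 ± 0.0192 in KO (SD, n = 3 each), a difference within the spread of the libraries.

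Qars, for glutamine, was the 1 synthetase gene with a positive value in edgeR. It was at 17.3, 16.9 and 16.9 FPKM in WT and 17.6, 17.9 and 18.1 in KO, with each KO library above each WT library in FPKM. In edgeR, whose scaling places all KO values slightly lower than FPKM does, its log2 difference was 0.01 with a 95% interval from -0.06 to 0.09, and with upper quartile scaling it was -0.03. Lars, for leucine, was at 16.1, 16.5 and 15.9 FPKM in WT and 16.1, 15.9 and 16.2 in KO, which overlap (-0.07, interval from -0.14 to 0.01). Eprs, for glutamate and proline, and Dars, for aspartate, also overlapped, at -0.08 and -0.09. Without KO replicate 3 Dars was called lower (edgeR adjusted p = 0.0485). Iars, for isoleucine, was at 23.7 to 24.3 FPKM in WT and 23.1 to 23.4 in KO, separate but close (-0.10, edgeR adjusted p = 0.0586). Vars, for valine, overlapped at -0.16 (edgeR adjusted p = 0.0711) and was called lower without WT replicate 1 (0.0146) or KO replicate 2 (0.0366). With the offsets Eprs, Iars, Lars and Vars were called lower.

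Several of these enzymes are known to sit together in the cytosolic multisynthetase complex. Of the 7 genes of the set that encode its members (Eprs, Iars, Lars, Qars, Kars, Rars and Dars), 2 were lower, and the median log2 fold change was -0.09. Among the 12 genes outside it 11 were lower, with a median of -0.21, the exception being Vars. With the offsets the counts came to 4 of 7 and 9 of 12, so the contrast depends on the scale, and it was not tested. Mars1, the methionine enzyme of the same complex and not one of the 34, was lower at -0.32 (edgeR adjusted p = 0.00197). Its scaffold gene Aimp1 was at 5.63 ± 0.443 FPKM in WT and 5.64 ± 0.229 in KO (SD, n = 3 each), and its log2 difference of -0.05 was 0.0025 with limma on log2(FPKM + 1), while with the offsets it was called lower at -0.27 (edgeR adjusted p = 0.00508). Aimp2, a second scaffold gene, was lower at -0.38 (edgeR adjusted p = 0.0208), not so with the offsets (-0.11), without WT replicate 1 or without KO replicate 2. The auxiliary gene Eef1e1 had -0.16 (edgeR adjusted p = 0.251).

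Among 17 tested mitochondrial synthetases and related genes, 3 were higher, 1 was lower and 13 did not pass the test. Their median log2 value was 0.00, and 0.07 with the offsets. Gatb (0.32), a subunit of the glutamyl-tRNA amidotransferase, Wars2 (0.38) and Lars2 (0.41) were higher, and Aars2 (-0.35) was lower. The calls of Lars2, Wars2 and Aars2 were each lost without at least 1 library: Lars2 without any but WT replicate 3 and KO replicate 2, Wars2 without KO replicate 3, and Aars2 without WT replicate 1, WT replicate 3 or KO replicate 1. The value of Lars2 fell to 0.19 without KO replicate 1, its highest library. The difference between the cytosolic and mitochondrial lists was not tested.

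**Figure D5:**
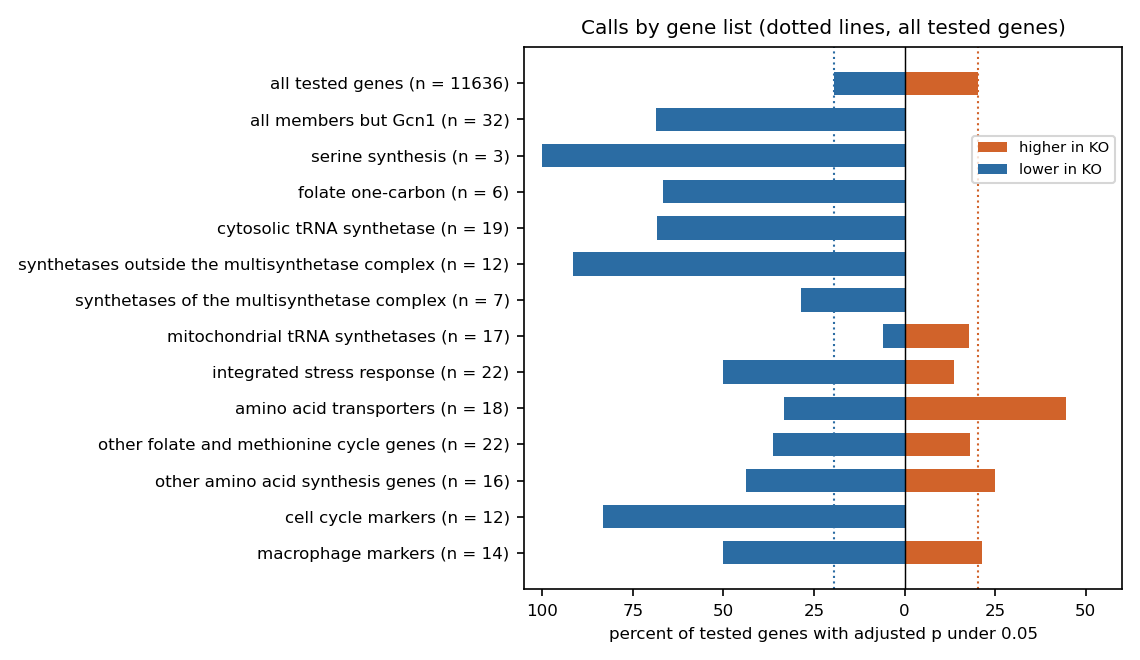
Percent of the tested genes of each list that were higher (right) or lower (left) in KO by edgeR at an adjusted p under 0.05, with dotted lines at the share over all tested genes, 20.3% higher and 19.4% lower. Serine, folate and cytosolic synthetase genes have calls only to the left, whereas amino acid transporters have calls on both sides.

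Genes of the integrated stress response, the pathway downstream of eIF2 phosphorylation, were mixed: of 22 tested, 11 were lower and 3 higher, and the median of the list was -0.14. Atf4 RNA itself was at 40.8, 40.6 and 39.2 FPKM in WT and 30.0, 31.0 and 32.4 in KO. It was lower in each KO library (-0.42 ± 0.04, edgeR adjusted p = 1.95e-05). Known ATF4 targets Trib3 (-0.51), Chac1 (-0.70), Ddit4 (-0.66) and Nupr1 (-0.52) were also lower, as was Ddit3 (-0.39), which encodes CHOP and was not called with the offsets (-0.11). Cebpb, which encodes a partner of ATF4, went the other way, from 1.67 ± 0.240 to 8.07 ± 2.06 FPKM (SD, n = 3 each; log2 fold change 2.21, edgeR adjusted p = 6.61e-06). With the offsets 9 genes of this list were lower and 1 higher, with a median of -0.10, and limma on log2(FPKM + 1) gave 7 lower and 4 higher. The phosphorylation of eIF2 and the ATF4 protein were not measured.

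Amino acid transporters went both ways, with 8 of 18 higher, 6 lower and a median of 0.08. Cationic transporter gene Slc7a1 was lower (-0.35), while Slc7a7 (0.73), Slc7a2 (0.66) and Slc43a2 (0.32) were higher. The cystine transporter Slc7a11, a known ATF4 target, was higher by 0.32 in edgeR and stood at -0.0034 with the offsets, under which 3 genes of the list were higher and 6 lower, with a median of -0.03. Among 22 other folate and methionine cycle genes 8 were lower and 4 higher, with a median of -0.14 (7, 3 and -0.02 with the offsets). Methionine synthase Mtr (0.46), Ahcyl1 (0.35) and Ahcyl2 (0.30) were higher, and the purine synthesis gene Atic (-0.27) was lower. Of 16 other amino acid synthesis genes 7 were lower and 4 higher, with a median of -0.18 (3, 4 and -0.02 with the offsets): Aldh18a1, the enzyme before Pycr1 in proline synthesis, was lower (-0.35), as was the mitochondrial aspartate aminotransferase Got2 (-0.30), and the glutamate dehydrogenase gene Glud1 (0.31) was higher. With the offsets Mtr was at 0.25 and Slc7a2 at 0.43.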

How the data were processed

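RNA was selected with oligo(dT) and libraries were made with dUTP marking, per the labels' protocols. Cutadapt 1.9, HISAT2 2.0.4 and StringTie 1.3.4d were named, per the submitters' processing notes, while no genome build is named in the sources used here. The deposited table holds FPKM and estimated counts per gene and library. The estimated counts were whole numbers as deposited. Low counts piled up at 4 (5769 values, against 3204 at 3 and 2041 at 5), so a fragment stood for about 4 counts.

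KO was compared with WT for 11636 genes (mean FPKM 1 or higher) by edgeR 4.0.16 (R 4.3.3, quasi-likelihood, TMM, two-sided, Benjamini-Hochberg over all genes, threshold 0.05). Each library counted as 1 replicate. Counts of libraries within a group, divided by 4 to stand for fragments, differed beyond sampling noise (4.05 to 8.70 chi-square per degree of freedom). Such a spread does not tell separate animals from technical repeats. Same-numbered libraries did not deviate together (r from -0.04 to 0.19). Transcript length, GC content and pseudogenes (minimap2 2.31, cover of at least 50%) came from GENCODE M21 on GRCm38, which matched 27382 gene IDs, 23826 with identical coordinates; offsets were loess fits with a span of 0.3. Alternatives used limma 3.58.1 and DESeq2 1.42.0.

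The 34 genes and the lists were chosen with earlier results of these data known. Named genes are the 34, Pebp1, the neighbours of Gcn1, the 4 genes of smallest p of each list (1 is not reported here), and listed stress response and complex genes; Atp5k, Cct6a, Csf1r, Col1a1, Ly6g and the pseudogenes were chosen after their values were seen.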

Additional observations from a re-analysis of the deposited data

How the results depend on the processing

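Gcn1 was higher under each of the 18 other settings, and 30 of the 34 genes kept a negative log2 fold change in every setting that tested them (27 genes of the set were tested at a mean of at least 5 FPKM); 15 of the 22 lower genes were called lower in every setting that tested them, and 17 without any 1 library. Leaving out 1 library gave 18 to 24 lower genes of the set, with 15.4% to 17.6% of all genes lower. Other settings gave 16 (limma, 14.1% of all genes) to 28 (upper quartile scaling, 24.8%), and without the filter 17 were lower (6.15%). Limma on log2(FPKM + 1), + 0.5 and + 0.1 called 2 genes higher, Gcn1 and Eif2ak4 (adjusted p = 0.0484, 0.0476 and 0.0461). Signs turned for Qars with upper quartile scaling (-0.0335), for the log2 fold change of Aimp1 (-0.2717 with the offsets) with limma (0.0025, 0.0029 and 0.0032 by pseudocount) and with 1 library left out (from -0.1044 to 0.0039, the latter without WT replicate 1), for Slc7a11 with the length and GC offsets (-0.0034, and -0.0045 with the block as well), and for Gm13841, a neighbour of Gcn1 at -0.29, with the offsets (0.1737, and 0.1738 with the block); the cause was not tested. With the replicate number as a block, 24 of the 34 genes were lower and 1 higher, and 2407 genes in all were higher and 2294 lower; the numbers did not pair the libraries, and not every library correlated best with its own number. The block with the offsets (added after seeing the data) gave 21 lower, with 14.8% of all genes lower. A fragment stood for about 4 counts, so low genes such as Cth and Shmt1 rest on fewer fragments than their counts say.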

Other observations

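Of the pseudogenes matched to Pebp1, Gm9824 stood at 13.8, 27.4 and 14.7 FPKM and Gm10819 at 8.16, 10.3 and 8.53 FPKM in the WT libraries, and both were listed at 0 in each KO library. Among the genes matched to Rplp0, Gm9625 went from 5.12 ± 0.457 to 69.4 ± 3.81 FPKM and Gm14165 from 0.285 ± 0.0811 to 7.55 ± 0.393 (SD, n = 3 each), while Gm6278 was at 17.1 ± 1.66 and 14.6 ± 1.89, so the matched copies did not all have higher levels in KO.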
